A study of Mus musculus with 4 samples.

Results

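Transcripts of 10 genes that encode intercalated disc junction proteins were followed in cardiac progenitor cells (CPCs) with and without Isl1, a homeodomain factor that marks second heart field progenitors. The genes were Gja1, Gja5 and Gjc1 of the gap junction, Cdh2 and Ctnna3 of the adherens junction, and Pkp2, Dsp, Jup, Dsg2 and Dsc2 of the desmosome. They were picked by name, and for each gene the transcript entry with the highest summed count over all libraries was kept, which gave 10 of the 20701 gene symbols in the table. RNA-Seq was done on mouse E14 Tg(Nkx2-5-EmGFP) embryonic stem cells that had been grown on mitomycin-treated embryonic fibroblasts, differentiated to CPCs and sorted for GFP at day 5. GFP in these cells reports Nkx2-5, a cardiac transcription factor gene. The control group held 2 libraries and the Isl1_KO group held 2 libraries, each group from 2 different clones. The Isl1_KO clones carried Isl1-/- alleles made by CRISPR/Cas9, and all clones carried the reporter and passed the same GFP sort. With 2 clones in each group, differences between genotypes and differences between clones cannot be fully told apart, and p-values measure only the spread between these libraries.

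The intercalated disc joins cardiac muscle cells end to end. Gap junction channels, made of connexins, let ions and small molecules pass between neighbouring cells. Adherens junctions, built on classical cadherins and catenins, anchor actin filaments, while desmosomes, built on desmogleins, desmocollins, plakoglobin, plakophilins and desmoplakin, anchor intermediate filaments. In young cardiomyocytes these complexes are spread along the cell border and are gathered at the cell ends only late in heart development, and several of the proteins are also made by epithelia and other non-muscle cells.

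Most of the junction genes were already transcribed in the progenitors, with and without Isl1. Of the 10 genes, 8 were well detected, and none of these 8 reached an adjusted p under 0.05 (quasi-likelihood test of edgeR). Only 2.45% of all 12715 tested genes did, so a count of 0 among 8 does not set these genes apart. The desmosomal cadherin gene Dsc2 showed the lowest Isl1_KO to control ratio among them, a fold of 0.544, and among the fits that kept all libraries it passed the threshold only with DESeq2. Gja5 and Ctnna3 were at or near the detection limit in every library.

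Summed over the kept entries, the control libraries had 8821517 and 9147425 counts, the Isl1_KO libraries 13186109 and 11388333, and between 15411 and 15596 genes had at least 1 count in a library. A floor of 3 counts corresponded to between 0.231 and 0.341 counts-per-million (CPM). The targeted gene followed its label, with 309 and 326 counts for Isl1 in control and 17 and 24 in Isl1_KO. The reporter gene Nkx2-5 was counted 186 and 181 times in control against 62 and 50 times in Isl1_KO, although all cells had passed the GFP sort. The 7 markers of cardiac progenitors, Isl1 and Nkx2-5 included, summed to 707 and 719 CPM in control and to 307 and 282 CPM in Isl1_KO, and 5 of them fell in edgeR's test. The 6 cardiomyocyte markers (Tnnt2, Myh6, Myl7, Actn2, Ttn and Ryr2) summed to 1164 and 1253 CPM in control and to 45.0 and 31.3 CPM in Isl1_KO, and all 6 fell. Of all 12715 tested genes, edgeR called 2.45% at an adjusted p under 0.05. In bulk RNA of this kind, fewer cells of a type and less RNA per cell cannot be told apart.

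Expressed per length, as RPKM (CPM of the kept entry divided by its transcript length in kilobases), the junction genes fell into 3 tiers. In control, Gja1 led with 88.7 and 84.8 RPKM, followed by Cdh2 with 72.8 and 72.9, Pkp2 with 74.0 and 71.1 and Dsp with 71.3 and 72.8. The ranges of Cdh2, Pkp2 and Dsp overlapped, so the order among these 3 could not be told. Jup at 42.9 and 38.9 RPKM and Gjc1 at 38.3 and 37.8 RPKM came next, and their mean levels differed by less than the 2 Jup libraries differed from each other. The desmosomal cadherins formed the lower tier, with Dsc2 at 14.6 and 14.6 RPKM above Dsg2 at 12.3 and 12.8 RPKM. Ctnna3 and Gja5 lay far below that tier, with the highest library at 0.179 RPKM for Ctnna3 and at 0.0702 RPKM for Gja5. In Isl1_KO, Gja1 and Dsp stayed at the top with lowest values of 92.0 and 74.8 RPKM. Cdh2 (61.7 and 52.9 RPKM) and Pkp2 (66.2 and 43.6 RPKM) could not be ordered there, nor could Gjc1 (39.8 and 35.55 RPKM) and Jup (37.5 and 28.6 RPKM), nor Dsg2 (9.28 and 10.3 RPKM) and Dsc2 (9.87 and 5.98 RPKM).

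**Figure D1:**
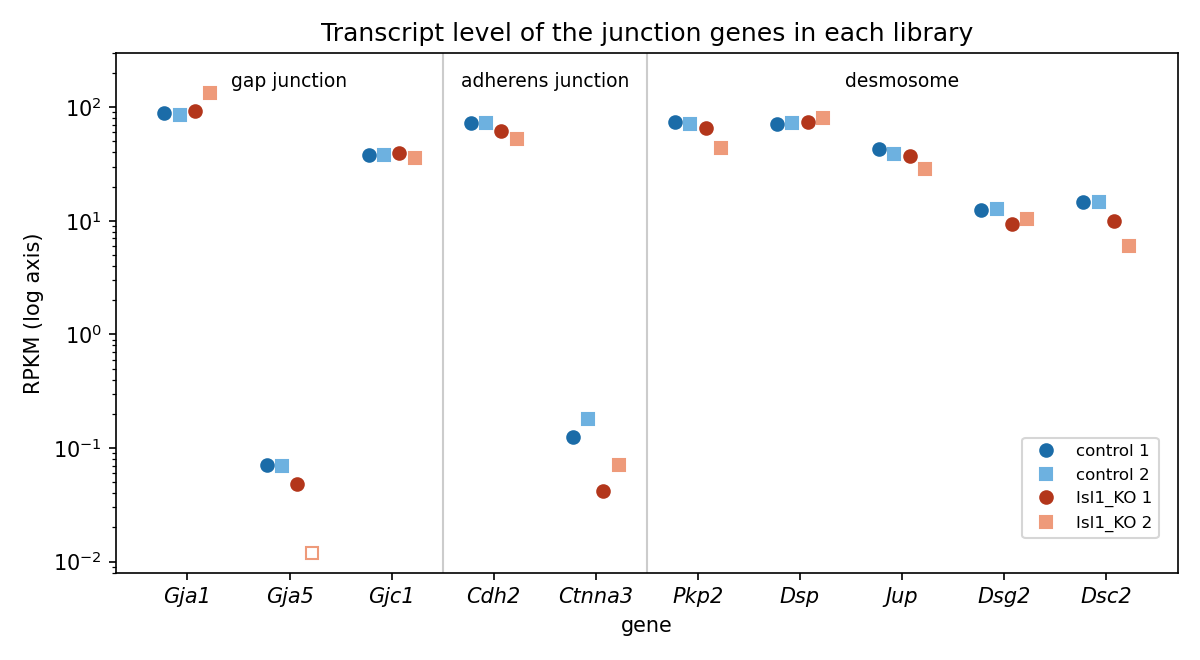
Transcript level of the 10 junction genes in RPKM on a log axis, with 1 point for each of the 2 control (blue) and 2 Isl1_KO (red) libraries; the open square stands for a library with 0 counts and is drawn below the lowest measured value. Gja5 and Ctnna3 lie at or under 0.179 RPKM in every library, while the other 8 genes lie between 5.98 and 133.6 RPKM.

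The gap junction genes ranged from Gja1, the main ventricular connexin (Cx43), among the most abundant of the 10, to Gja5, the connexin of atrium and conduction system (Cx40), which was barely detected. The 250 bases upstream of these 2 starts are shown because the genes stand at opposite ends of this range in the same cells. Gja1 lies at chr10:56097106-56110225 on the plus strand and Gja5 at chr3:96708616-96881339 on the plus strand (GENCODE vM1, assembly NCBIM37, on which mm9 is based). The windows, chr10:56096856-56097105 and chr3:96836075-96836324, were read from RefSeq promoters of GRCm38.p6 that matched NCBIM37 exactly once. Windows were kept for 5 of the 10 genes. Not all chromosomes were searched, so a gene without a window here may still have an annotated promoter. The Gja1 window ends at the annotated gene start, and the Gja5 window ends 14 bases from an internal annotated start. Capitals mark the homeodomain core TAAT on either strand.
Gja1: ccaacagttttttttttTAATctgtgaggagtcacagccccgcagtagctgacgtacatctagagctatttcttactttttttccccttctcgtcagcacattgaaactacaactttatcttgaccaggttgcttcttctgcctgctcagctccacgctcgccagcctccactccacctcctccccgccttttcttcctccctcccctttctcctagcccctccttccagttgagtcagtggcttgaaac
Gja5: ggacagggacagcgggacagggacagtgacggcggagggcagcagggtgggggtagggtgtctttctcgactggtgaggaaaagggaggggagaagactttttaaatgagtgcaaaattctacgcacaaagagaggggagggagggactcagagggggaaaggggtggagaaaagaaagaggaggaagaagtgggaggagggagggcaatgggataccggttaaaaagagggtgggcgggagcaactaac
The Gja1 window held 1 TAAT, 1 GATAA, the core of GATA factor sites, and no GC box (GGGCGG). The Gja5 window held no TAAT, no GATAA and 1 GC box. Searched on both strands with each motif counted apart from the others, TAAT occurred in 54.9% of 32851 promoter windows of 250 bases, GATAA in 22.6% and GGGCGG in 32.7%. These matches describe letters in the window and were not tested as binding sites.

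Gja1 was counted 2422 and 2404 times in control against 3710 and 4776 times in Isl1_KO, which gave 274.9 and 263.1 CPM in control against 285.2 and 414.3 CPM in Isl1_KO. Both Isl1_KO libraries were above both control libraries, the first by little and the second clearly. Of all tested genes, 29.1% were above in both. The fitted log2 fold change, Isl1_KO over control, was 0.38 (SE 0.179, 95% interval -0.077 to 0.83), with an adjusted p of 0.281 in edgeR. Against the control mean, Isl1_KO replicate 1 differed by 0.08 and replicate 2 by 0.62 on the log2 scale.

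Gjc1 encodes Cx45, the connexin of the early heart tube and later of the nodes, and lies at chr11:102660893-102681014 on the minus strand. It had 96.7 and 95.6 CPM in control against 100.7 and 89.9 CPM in Isl1_KO. The Isl1_KO libraries fell on either side of the control libraries. The log2 fold change was -0.01 (SE 0.0807, 95% interval -0.22 to 0.19, adjusted p 0.943 in edgeR). Gja5 had 2 counts in each control library, 2 in Isl1_KO replicate 1 and 0 in Isl1_KO replicate 2. All 4 values were under the floor of 3 counts, so a difference in Gja5 was not detectable at this depth. An exon of the annotated Gja5 gene model overlaps that of Gpr89 on the opposite strand, and the counting joined both strands. Whether the counted RefSeq transcript shares this overlap was not checked, so even these few reads cannot be placed with certainty.

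Gja1 and Gjc1 made up nearly all connexin transcripts. Of the RPKM summed over 20 connexin genes, Gja1 took 66.8% and 65.5% in control and 66.3% and 74.7% in Isl1_KO. The share of Gjc1 was 28.8% and 29.2% in control and 28.7% and 19.9% in Isl1_KO. Isl1_KO replicate 1 thus had shares close to those of the controls, and replicate 2 alone had a larger share of Gja1. The remaining 18 connexins, Gja5 among them, shared between 4.31% and 5.44% in every library, and the ratio of Gja1 to Gjc1 per length was 2.32 and 2.24 in control and 2.31 and 3.76 in Isl1_KO.

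**Figure D2:**
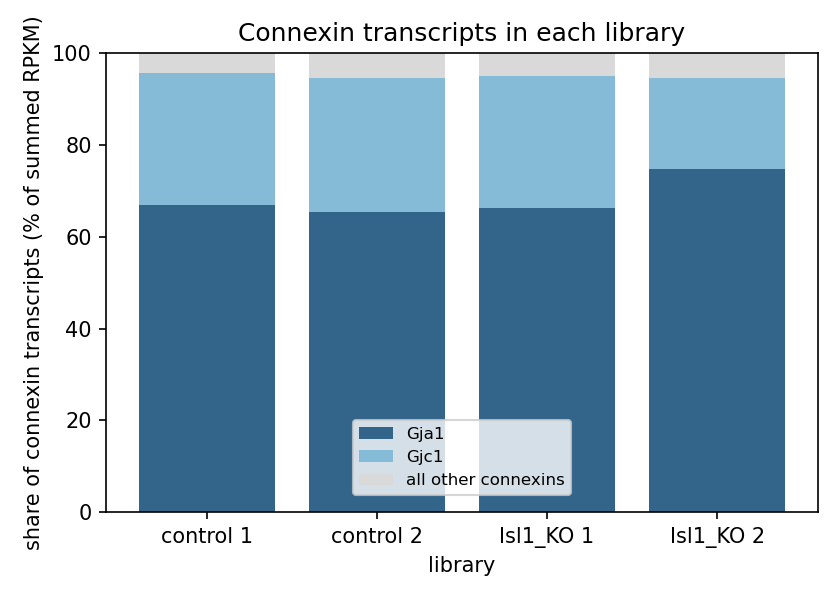
Share of each library's summed connexin RPKM (percent, vertical axis) taken by Gja1 (dark blue), Gjc1 (light blue) and the remaining 18 connexin genes (grey), for each of the 4 libraries. The first 3 bars are alike, with Gja1 between 65.5% and 66.8%, and the bar of Isl1_KO replicate 2 has Gja1 at 74.7%.

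Cdh2 encodes N-cadherin, the classical cadherin of cardiac muscle, and lies at chr18:16747386-16967755 on the minus strand. It had 351.2 and 351.9 CPM in control against 297.5 and 255.3 CPM in Isl1_KO. Both Isl1_KO libraries were below both control libraries, as for 29.0% of all tested genes, and the distance between the groups exceeded the spread within either. The log2 fold change was -0.35 (SE 0.0917, 95% interval -0.58 to -0.11), with an unadjusted p of 0.0119 and an adjusted p of 0.119 in edgeR.

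Ctnna3 encodes alphaT-catenin, an alpha-catenin of the mature disc that binds beta-catenin and plakophilin 2, and lies at chr10:62892846-64466415 on the plus strand. It was counted 4 and 6 times in control against 2 and 3 times in Isl1_KO. Summed over libraries, the 10 control counts and 5 Isl1_KO counts gave a depth-corrected ratio of 0.366 with an exact 95% counting interval of 0.0981 to 1.17, which covers counting error only and includes no change. The alpha-catenin made in these cells was Ctnna1, with between 99.81% and 99.90% of the summed alpha-catenin RPKM, while Ctnna3 took between 0.0117% and 0.0579%.

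None of the cytoplasmic plaque genes of the desmosome passed the test. Dsp, the link from the plaque to intermediate filaments, lies at chr13:38243197-38290446 on the plus strand. It had the most reads of the 10 genes, with 682.5 and 696.4 CPM in control against 715.8 and 774.0 CPM in Isl1_KO. Both Isl1_KO libraries were above control by a small margin, and the log2 fold change was 0.11 (SE 0.0723, 95% interval -0.072 to 0.30, adjusted p 0.407 in edgeR). An exon of the annotated Dsp gene model overlaps that of Gm10129 on the opposite strand, so Dsp values may include reads of both. Overlap of the counted RefSeq transcript was not checked.

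Pkp2, plakophilin 2, the armadillo protein that clusters cardiac desmosomes, lies at chr16:16213411-16272805 on the plus strand. It had 212.7 and 204.4 CPM in control against 190.5 and 125.3 CPM in Isl1_KO. Isl1_KO replicate 1 was close under the controls and replicate 2 well under them, at log2 differences of -0.13 and -0.74 from the control mean. The log2 fold change was -0.40 (SE 0.197, 95% interval -0.90 to 0.099, adjusted p 0.295 in edgeR). Among plakophilin transcripts per length, Pkp2 held 72.4% and 71.7% in control and 68.0% and 54.3% in Isl1_KO, and its relative Pkp4 held 27.0% and 27.3% in control and 31.1% and 44.3% in Isl1_KO.

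Jup, plakoglobin, serves desmosomes and adherens junctions alike and lies at chr11:100230272-100259077 on the minus strand. It had 214.2 and 194.1 CPM in control against 187.1 and 142.7 CPM in Isl1_KO. The groups did not overlap, but the distance from the lower control to Isl1_KO replicate 1 was smaller than the distance between the control libraries. The log2 fold change was -0.31 (SE 0.142, 95% interval -0.67 to 0.054, adjusted p 0.272 in edgeR). Jup and Pkp2 thus shared a pattern in which Isl1_KO replicate 2 was the low library, while Dsp was highest in that library. Relative to Dsp per length, Pkp2 stood at 1.04 and 0.976 in control and at 0.885 and 0.538 in Isl1_KO, and Jup stood at 0.601 and 0.534 in control and at 0.501 and 0.353 in Isl1_KO.

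The desmosomal cadherins Dsg2 and Dsc2, the partners that are widely made outside stratified epithelia and the main ones of heart, were lower in both Isl1_KO libraries than in both control libraries. The same was true of 29.0% of all tested genes. Dsg2, desmoglein 2, lies at chr18:20716575-20763022 on the plus strand, with an exon that overlaps the transcript Gm16090 on the opposite strand. It had 70.95 and 73.5 CPM in control against 53.4 and 59.2 CPM in Isl1_KO. The Isl1_KO libraries lay close together, and the log2 fold change was -0.36 (SE 0.0859, 95% interval -0.58 to -0.14), with an unadjusted p of 0.00778 and an adjusted p of 0.101 in edgeR.

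Dsc2, desmocollin 2, lies at chr18:20189134-20218055 on the minus strand. It was counted 593 and 617 times in control against 592 and 318 times in Isl1_KO, which at the deeper sequencing of the Isl1_KO libraries gave 67.3 and 67.5 CPM in control against 45.5 and 27.6 CPM in Isl1_KO. The control libraries were almost equal, both Isl1_KO libraries were lower, and replicate 2 was the lowest. The log2 fold change was -0.88 (SE 0.234, 95% interval -1.47 to -0.29), a fold of 0.544, with an unadjusted p of 0.0122 and an adjusted p of 0.120 in edgeR. In DESeq2 the log2 fold change was also -0.88, with an adjusted p of 0.0131, so the call depended on the tool. Without Isl1_KO replicate 2 the log2 fold change was -0.57, and without Isl1_KO replicate 1 it was -1.29. The 3 deposited Dsc2 transcripts share most of their reads and each gave -0.87 when all entries were tested side by side.

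The balance of the 2 desmosomal cadherins differed between the Isl1_KO libraries. The ratio of Dsc2 to Dsg2 per length was 1.18 and 1.15 in control, 1.06 in Isl1_KO replicate 1 and 0.582 in Isl1_KO replicate 2. Replicate 1 was near the controls, with both genes lower there, and in replicate 2 Dsc2 was lower than Dsg2.

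**Figure D3:**
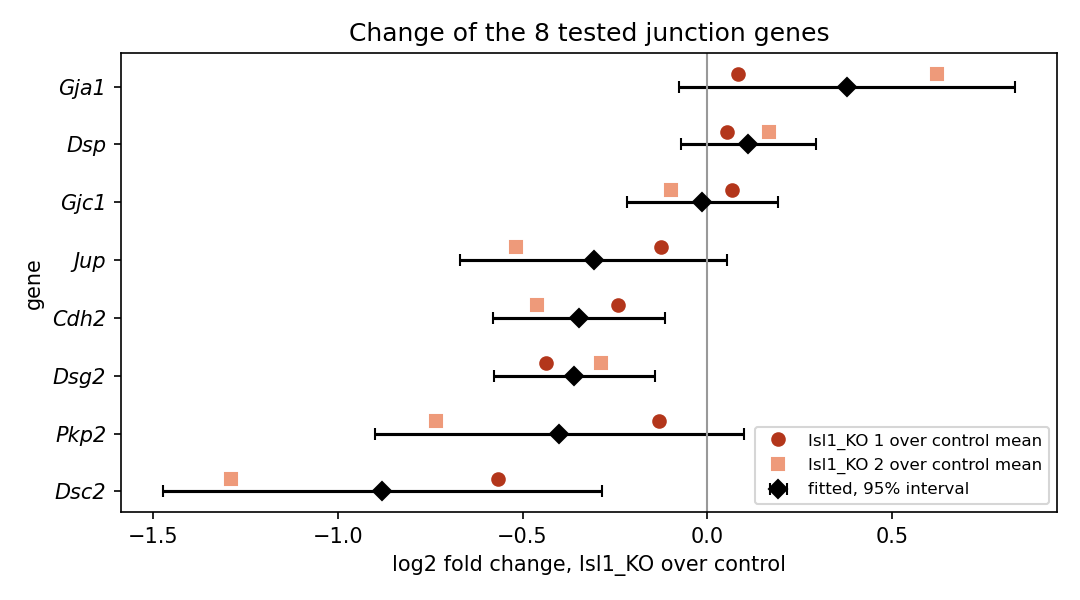
Log2 fold change, Isl1_KO over control, of the 8 tested junction genes: diamonds with bars are the edgeR estimate and its 95% interval, and the circle and square are Isl1_KO replicates 1 and 2 over the mean of the control libraries. The intervals of Dsc2, Dsg2 and Cdh2 lie below 0, and the replicates are farthest apart for Dsc2, Pkp2 and Gja1.

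Counted over the 8 genes that passed the filter on low counts, 0 were called at an adjusted p of 0.05 in edgeR, where 2.45% of all 12715 tested genes were called (247 lower and 64 higher). At an unadjusted p under 0.05, 3 of the 8 passed (Cdh2, Dsg2 and Dsc2, all lower), and 23.3% of all tested genes did. DESeq2 called 1 of them by adjusted p (Dsc2), against 4.67% of all genes with an adjusted p. Under the criteria in the study's methods, a log2 fold change beyond 0.58 either way with an unadjusted p under 0.05 in DESeq2, 1 of the 10 genes passed (Dsc2), and 5.89% of 16855 genes with at least 1 count did. Both Isl1_KO libraries were below both control libraries for 5 of the 8 genes (Cdh2, Pkp2, Jup, Dsg2 and Dsc2), as they were for 29.0% of all tested genes. They were above both for 2 of the 8 (Gja1 and Dsp), as for 29.1% of all tested genes. The median log2 fold change of the 8 genes was -0.33, and that of all tested genes was -0.0027. Gja5 and Ctnna3 did not pass the filter and enter none of these counts over 8.

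The Isl1_KO libraries differed from each other more than the control libraries did, and this held for the junction genes. The median absolute log2 difference between the Isl1_KO replicates was 0.306 over the 8 genes, and between the control replicates it was 0.0403. Over all tested genes these medians were 0.187 and 0.0818. Isl1_KO replicate 2 was higher than replicate 1 by 0.54 for Gja1, 0.15 for Dsg2 and 0.11 for Dsp. It was lower than replicate 1 for Dsc2 (-0.72), Pkp2 (-0.60), Jup (-0.39), Cdh2 (-0.22) and Gjc1 (-0.16). The reads of all 10 genes together came to 1971 and 1947 CPM in control against 1876 and 1889 CPM in Isl1_KO.

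Markers of other cell types were read beside these values. For comparison, edgeR called 2.45% of all tested genes by adjusted p, and 23.3% were at an unadjusted p under 0.05. Both Isl1_KO libraries were below both control libraries for 29.0% of them and above both for 29.1%. The 6 markers of the fibroblast feeder and matrix list (Col1a1, Col1a2, Col3a1, Thy1, Postn and Lum) summed to 2179 and 2127 CPM in control, 1367 CPM in Isl1_KO replicate 1 and 498.5 CPM in Isl1_KO replicate 2, with 5 of 6 lower in both Isl1_KO libraries than in both control libraries and 0 called in edgeR (3 at an unadjusted p under 0.05, 0 in DESeq2). Like this sum, Dsc2, Pkp2, Jup, Cdh2 and Gjc1 were lower in Isl1_KO replicate 2 than in replicate 1. Gja1, Dsg2 and Dsp were higher there, as was Thy1 of the marker list itself. The part of these markers' cells in the junction values was not tested. The 7 epithelial markers (Epcam, Cdh1, Krt8, Krt18, Krt19, Cldn6 and Cldn7), of which several belong to cells with many desmosomes, summed to 1482 and 1467 CPM in control against 1560 and 1497 CPM in Isl1_KO, with 0 of 7 called in edgeR (2 at an unadjusted p under 0.05, 0 in DESeq2). Those 2, Krt19 (log2 fold change -0.43) and Cldn6 (-0.25), were lower in both Isl1_KO libraries than in both control libraries. Krt18, Krt8 and Epcam were higher in both, and Krt18 and Krt8 held most of the summed CPM. The 6 endothelial markers summed to 377.9 and 377.4 CPM in control against 333.8 and 372.0 CPM in Isl1_KO, with 0 of 6 called in edgeR (3 at an unadjusted p under 0.05, 1 in DESeq2). Both Isl1_KO libraries were below both control libraries for 4 of the 6 (Cdh5, Tek, Tie1 and Emcn), the median log2 fold change was -0.81, and Kdr held most of the summed CPM. The pluripotency markers summed to 30.2 and 31.2 CPM in control against 26.5 and 49.7 CPM in Isl1_KO, and the endoderm markers to 55.4 and 54.9 CPM in control against 53.3 and 28.2 CPM in Isl1_KO, with 0 called in either list by edgeR or DESeq2 (1 pluripotency and 0 endoderm markers at an unadjusted p under 0.05). Sox2, with a log2 fold change of -0.033, held most of the pluripotency sum. The median of the 4 tested pluripotency markers was 0.74. Of these 4, Pou5f1 and Dppa4 were higher in both Isl1_KO libraries than in both control libraries, and the other 2 overlapped. The 4 tested endoderm markers had a median of -0.40, with 2 lower in both Isl1_KO libraries and 2 overlapping. None of these lists had a marker at 0 in every library.

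Genes that work beside the 10 were read from 4 lists. Their counts stand against 2.45% of all tested genes at an adjusted p under 0.05 in edgeR, and 23.3% at an unadjusted p under 0.05. DESeq2 called 4.67% of all genes with an adjusted p. Of the adherens junction partners, 19 were in the table, 18 were tested, 1 fell and 0 rose in edgeR (5 were at an unadjusted p under 0.05, and DESeq2 called 2). The gene that fell was Cdh6, a type II cadherin, with 44.6 ± 0.811 CPM in control against 27.6 ± 1.27 CPM in Isl1_KO (SD, n = 2 each) and a log2 fold change of -0.69 (SE 0.0970, adjusted p 0.0393). The partners with the most reads that did not pass were Ctnnb1, the beta-catenin that bridges cadherin and alpha-catenin, at 1353 ± 25.5 CPM in control against 1239 ± 136 CPM in Isl1_KO, and Ctnna1, at 1133 ± 2.55 and 1259 ± 73.2 CPM. The median log2 fold change of this list was -0.087.

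Of 15 other desmosome and desmosome-linked genes, 7 were tested and 0 were called in edgeR or DESeq2 (1 was at an unadjusted p under 0.05 in edgeR), with a median log2 fold change of 0.073. The 8 untested genes, which include the desmogleins and desmocollins of stratified epithelia, had at most 5 counts in a library. The keratin genes Krt18 and Krt8, whose filaments attach to epithelial desmosomes, had 619.2 ± 7.73 and 385.4 ± 1.65 CPM in control and 683.8 ± 61.4 and 405.4 ± 20.7 CPM in Isl1_KO (SD, n = 2 each). Both keratins were abundant in every library, with log2 fold changes of 0.14 (95% interval -0.072 to 0.36) and 0.073 (95% interval -0.10 to 0.25).

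Of 20 other connexin and pannexin genes, 6 were tested and 0 were called in edgeR or DESeq2 (1 was at an unadjusted p under 0.05 in edgeR), and the 14 untested genes had at most 12 counts in a library. Panx1, a channel protein that does not form gap junctions in most cells, had 19.8 ± 2.25 CPM in control against 19.5 ± 0.283 CPM in Isl1_KO. The median log2 fold change of this list was 0.50 and rests on genes of low counts.

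The list of disc-associated scaffolds and channels held the larger changes. Of 14 genes, 12 were tested, 3 fell and 0 rose in edgeR, which called 2.45% of all tested genes. The median log2 fold change of the list was -0.61. At an unadjusted p under 0.05, 8 of the 12 passed, and DESeq2 called 5 (Xirp1, Popdc2, Popdc3, Bves and Ank3). Ank3, which encodes ankyrin G, a scaffold of sodium channels, had a log2 fold change of -0.88 with both Isl1_KO libraries below both control libraries, and an adjusted p of 0.0700 in edgeR and 9.8e-04 in DESeq2; Ank3 was named after its values were seen. Xirp1, an actin-binding protein of the disc in striated muscle, was counted 160 and 182 times in control against 1 and 0 times in Isl1_KO (adjusted p 0.00277). Popdc2, a Popeye membrane protein of heart and muscle, was counted 409 and 469 times in control against 113 and 28 times in Isl1_KO, a log2 fold change of -3.11 (SE 0.479, adjusted p 0.0474), and missed the threshold with all transcript entries tested (adjusted p 0.0525) or with at least 10 counts required in every library (adjusted p 0.0565). Its relative Popdc3 was counted 32 and 32 times in control against 8 and 5 times in Isl1_KO, a log2 fold change of -2.73 (SE 0.332, adjusted p 0.0306). All 3 are known mainly from striated muscle. The scaffolds with the most reads were Tjp1 (ZO-1), which binds connexin tails and catenins, at 478.1 ± 7.93 CPM in control against 510.1 ± 3.89 CPM in Isl1_KO, and Dlg1, at 259.8 ± 5.46 and 282.0 ± 6.79 CPM. Neither passed, with log2 fold changes of 0.094 and 0.12.

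**Figure D4:**
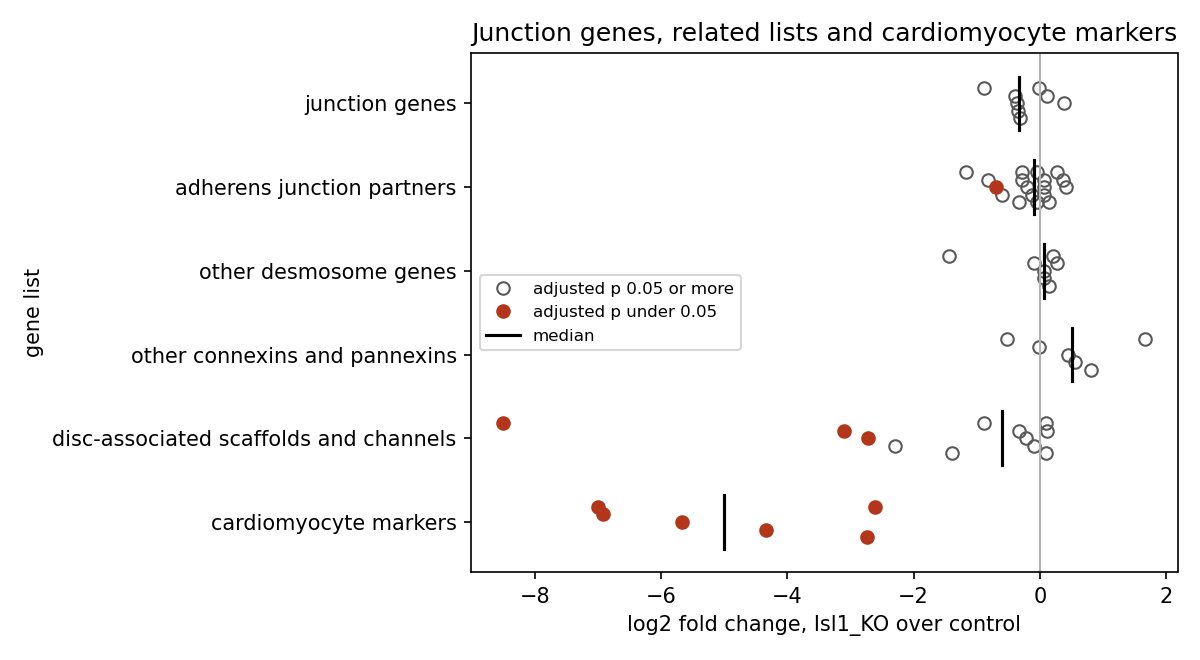
Log2 fold change, Isl1_KO over control, of the tested genes in each list, 1 point per gene, filled where the adjusted p in edgeR was under 0.05, with a vertical bar at the list's median. The junction genes lie between -0.88 and 0.38, and the cardiomyocyte markers lie between -7.01 and -2.61; the fitted value of the farthest disc-associated gene, Xirp1, depends on the prior count because 1 Isl1_KO library had 0 counts.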

How the data were processed

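Poly(A) RNA of sorted day 5 cells was sequenced as stranded libraries, and groups and replicate numbers came from the sample titles. The titles speak of a knockout and the series' design text of a knockdown, and the titles were followed. The authors mapped reads to mm9 with STAR (introns of 20 to 500000 bases) and counted exonic reads per RefSeq transcript with HOMER on both strands, so overlapping opposite-strand genes can share reads. Tool versions of the authors are not given in the sources used here. Counts as deposited by the authors are unadjusted whole reads, and a read shared by several transcripts of a gene is counted for each. The deposited RPKM values, made by the authors with edgeR over all entries, and the deposited columns of the authors' own DESeq2 comparison (mean count, fold change, its error, statistic and p-values) were not used. The number of sample columns that matched no sample was 0.

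Of 31507 entries, 1 was kept for each of 20701 symbols (highest summed count; ties took the first entry, as for Gja5 and Ctnna3). Groups were compared with edgeR 4.0.16 in R 4.3.3 by its quasi-likelihood F test (TMM, filterByExpr, no covariate, two-sided), adjusting p by Benjamini-Hochberg across all 12715 genes and calling those under 0.05. DESeq2 1.42.0 gave the alternative Wald test and the study's criteria. CPM and RPKM here use TMM-scaled totals of the 12715 genes that passed the filter, and each mean is followed by the SD between 2 libraries. Standard errors come from the coefficient and its F statistic. An exact permutation test of 2 libraries against 2 cannot give a two-sided p below 0.333, so edgeR's sharing of error between genes carries the tests. Intervals and floors from counts cover counting error only, since reads carried no molecular identifiers. Tests were tried on simulated counts first. Python 3.11.15 was used for tables and figures.

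The 10 genes and all lists were chosen with earlier results of these data known. Named were all 10 genes, the list genes past the threshold, the 2 list genes with the highest mean CPM among those not past it, Isl1 and Nkx2-5. Among them, 1 list gene is not reported here. The titles' replicate number was used as a block only as an alternative. Other alternatives changed the tool, scaling, filter, transcript choice or left out 1 library.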

Additional observations from a re-analysis of the deposited data

How the results depend on the processing

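With all libraries kept, 7 alternatives (DESeq2, DESeq2 size factors in edgeR, no filter, at least 10 counts in every library, all transcript entries, longest transcripts, replicate block) gave 56 member values, and each kept its direction; 1 of them passed an adjusted p of 0.05, Dsc2 with DESeq2, which made the count of junction genes called 1 in place of 0. Leaving out 1 library at a time gave between 0 and 7 called junction genes, between 1 and 29 called genes of the partner lists, between 27 and 6350 called genes in the whole table, and a median member log2 fold change between -0.37 and -0.13. Without a control replicate 0 of 16 member values passed, and without an Isl1_KO replicate 12 of 16 did; there the spread comes from the control pair alone, and the lone Isl1_KO library is assumed to vary as little. Gjc1 turned from -0.01 to 0.067 without Isl1_KO replicate 2 and was -0.097 without Isl1_KO replicate 1. Over 11 alternatives the log2 fold change ranged from 0.086 to 0.62 for Gja1, -0.73 to -0.13 for Pkp2, -0.52 to -0.12 for Jup and -1.29 to -0.57 for Dsc2, with both ends set by leaving out an Isl1_KO library. Genes called in the partner lists numbered 4, and 7 with DESeq2, 1 with at least 10 counts in every library and 7 with the replicate block. Requiring at least 10 counts removed Xirp1 and Popdc3 before testing, while Popdc2 was tested and missed the threshold. All genes called numbered 311, and 604 with DESeq2 (306 shared) and 492 with no filter (311 shared). The deviations of same-numbered libraries were unrelated (r = 0.00714 over 12027 genes). With 2 libraries in each group, this value cannot decide whether the number pairs samples, because differences between clones could hide a pairing. With the replicate block Dsc2 had -0.92 with an adjusted p of 0.0552 in edgeR, 0 junction genes were called, and 454 genes of the whole table were called. Among the other named genes, Panx1 turned to 0.10 without control replicate 2, and Nkx2-5, Cdh6, Popdc2 and Popdc3 lost their calls without either control replicate while Isl1 and Xirp1 kept theirs; these checks of other named genes were added after the data were seen. The cause of these changes was not tested. The depth leaves Gja5 and Ctnna3 undecided.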

Other observations

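The classical cadherin Cdh2 was also set against other cadherins of the same cells. Per length, the ratio of Cdh2 (N-cadherin) to Cdh1 (E-cadherin, the cadherin of epithelia) was 1.75 and 1.74 in control, 1.60 in Isl1_KO replicate 1 and 1.09 in Isl1_KO replicate 2. The ratio of Cdh2 to Cdh11, a cadherin of mesenchyme, was 1.25 and 1.29 in control and 0.866 and 0.692 in Isl1_KO. The groups did not overlap for either ratio. For Cdh11 this adds nothing to the separate values, because Cdh2 was lower and Cdh11 higher in both Isl1_KO libraries. Cdh11 had 291.9 ± 5.77 CPM in control against 376.6 ± 19.1 CPM in Isl1_KO (SD over the pair of libraries in a group). The Isl1_KO over control log2 fold change of 0.37 (SE 0.0703) had an adjusted p of 0.0716 with edgeR and 0.0421 with DESeq2. Cdh11 was singled out after its values were seen.

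Beside Popdc2 and Popdc3, the third Popeye gene, Bves, was counted 365 and 390 times in control against 157 and 57 times in Isl1_KO. Its log2 fold change of -2.29 (SE 0.373) had an adjusted p of 0.0549 with edgeR and 2.3e-08 with DESeq2, and 0.0151 in edgeR with the replicate number as a block. Des, which encodes desmin, the muscle intermediate filament that desmosomes of heart anchor, was counted 1022 and 1102 times in control against 774 and 310 times in Isl1_KO, a log2 fold change of -1.45 (SE 0.349) and an adjusted p of 0.103 with edgeR, or 0.0371 with the block. Bves and Des were also singled out after their values were seen. Both Isl1_KO libraries were below both control libraries for each, as for 29.0% of all tested genes, and replicate 2 was the lower.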
